A study of Mus musculus with 6 samples.

Results

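Mitosis and cytokinesis genes are described here across 3 groups of cultured mouse dermal fibroblasts. They are a list of 45 genes of cell division, made up of G2/M cyclins, mitotic kinases, and spindle, kinetochore, condensin and cytokinesis proteins. On the Affymetrix mouse 430 2.0 array 44 of the 45 had a probe set with that single gene symbol, and the brightest probe set of each was used, 44 of 18193 genes so named on the array. All 44 passed the filter on dim probe sets. The remaining gene, Ccnb1, was not analysed here. The labels give the strain as B6, and the cells came from newborn female mice, 0 to 2 days old, from a cross of C57BL/6 females with males of a 129/ICR mixed background carrying an X-linked GFP transgene under a chicken beta-actin promoter with a cytomegalovirus enhancer. All cells had first been sorted for absence of GFP and were at passage 4, so by the study's design the transgene of female cells lay on the inactive X. GFP-positive and GFP-negative cells received 4 μM 5-aza-2'-deoxycytidine (decitabine), an inhibitor of DNA methylation, for 48 hours, recovered for 24 hours, and were sorted again by whether GFP had become active. Control cells were kept as long without the drug and were not sorted again, so the drug and the further sort cannot be told apart. Each group had 2 arrays, called biological replicates in the labels. The sex of control replicate 2 is given as mixed, so the statement on the inactive X may not hold for all its cells. A free-text label of the treated samples says untreated, against their titles and their dose, which were followed here. Whether the replicates came from separate animals or cultures, or whether animals were pooled, is not stated, so p-values measure only the spread between these arrays.

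Mitosis is driven by cyclin-dependent kinase 1 with cyclins A and B. Polo-like and Aurora kinases build the spindle and attach chromosomes to it, and the spindle checkpoint holds back anaphase until every kinetochore is attached. The anaphase-promoting complex with Cdc20 then marks cyclin B and securin for degradation, sister chromatids separate, and the cell divides by a contractile ring at the central spindle. Most of these genes are transcribed late in the cell cycle, under the DREAM complex, B-Myb and FoxM1, which act on a promoter motif called the cell cycle genes homology region (CHR), often beside CCAAT boxes bound by NF-Y. In a culture their RNA therefore marks how many cells are in or near mitosis. In bulk RNA, a change in the number of cells in mitosis and a change in the RNA per mitotic cell cannot be told apart.

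Signals were brought to a 2% trimmed mean of 500 on all arrays. In all 3 groups the array of replicate 1 stood apart from that of replicate 2, with a lower quartile of the scaled signal of 38.7 to 42.5 in replicate 1 and 19.2 to 22.6 in replicate 2. Differences are therefore also given within each replicate number and with the replicate number as a block. All 11 fibroblast markers passed the filter, and their summed signal was 185437 to 192918 in GFP-positive, 188452 to 200065 in GFP-negative and 223458 to 234292 in control cells. Single fibroblast markers fell further than the sum. Their median log2 difference from control was -0.76 in GFP-positive and -0.27 in GFP-negative cells, and the lowest were -3.36 and -3.25. Both arrays lay below both control arrays for 8 of 11 and 6 of 11, against 15.7% and 14.1% of all genes. Of the keratinocyte markers 5 of 8 on the array passed (Krt14, Krt1 and Cdh1 did not), with sums of 1177 to 1692 in GFP-positive, 1152 to 1274 in GFP-negative and 721 to 1145 in control cells. For skeletal muscle markers, of which 5 of 6 passed (not Myog), the sums were 13282 to 13306 in GFP-positive, 13328 to 16838 in GFP-negative and 4514 to 9616 in control cells. Leukocyte markers passed in 3 of 6 (not Ptprc, Itgam or Cd3e), with sums of 1166 to 1248 in GFP-positive, 1080.3 to 1362 in GFP-negative and 778 to 949 in control cells. Endothelial (4 of 6, not Pecam1 or Tie1), melanocyte and Schwann cell (3 of 5, not Tyrp1 or Dct) and adipocyte markers (1 of 4, not Adipoq, Cidec or Lep) had overlapping sums in the 3 groups. Each sum is over all markers of a list on the array, including those below the filter. The part of these shifts in the results below was not tested.

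Most mitotic genes stood slightly above control in both treated groups, by amounts that did not pass the test for single genes. Differences are of log2(signal + 30.64), with the standard error (SE) from limma, and a gene was called at a Benjamini-Hochberg adjusted p under 0.05 over all 27022 probe sets tested. In GFP-positive against control cells 35 of 44 members (79.5%) had a positive difference, against 54.4% of the 13223 genes tested, and the median was 0.34 against 0.045 over all genes. Within replicate 1 the members' median was 0.18 (27 of 44 positive), and within replicate 2 it was 0.45 (39 of 44 positive). The differences ran between -0.45 for Ttk and 0.75 for Nusap1. In GFP-negative against control cells 39 of 44 (88.6%) were positive, against 54.5% of all genes, with a median of 0.24 against 0.04. That median was 0.29 within replicate 1 (36 positive) and 0.18 within replicate 2 (30 positive). Both comparisons use the same control arrays. Without control replicate 2 the medians were 0.22 in GFP-positive and 0.15 in GFP-negative cells, and without GFP-negative replicate 1 that of GFP-negative cells was again 0.15.

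Limma called 0 of 44 members in either treated group, where 0.122% of all probe sets were called in GFP-positive and 0.0296% in GFP-negative against control cells. At an unadjusted p under 0.05 there was 1 member in GFP-positive cells, Aurka, against 8.58% of all genes, and 0 in GFP-negative cells, against 6.2%. With the replicate number as a block 1 member was called in each, Aurka in GFP-positive and Ect2 in GFP-negative cells, or 2.27% of members against 6.21% and 3.57% of all probe sets (3.15% and 1.9% in the upward direction). Unadjusted p-values under 0.05 in the blocked fit were reached by 12 of 44 members in GFP-positive cells (27.3%, against 23.4% of all genes) and by 10 in GFP-negative cells (22.7%, against 18.9%). The shares of all genes count both directions, whereas all 12 and all 10 of these members lay above control. How many of all genes were above control at that unadjusted p was not counted, so the shares are not directly comparable. Adjusted calls of the blocked fit among all genes were 525 upward and 502 downward for GFP-positive, 321 and 278 for GFP-negative cells. The sign of the difference was also more uneven among members than among all genes. It was positive within both replicate numbers for 26 members (59.1%, against 36.2% of all genes) in GFP-positive and for 24 (54.5%, against 35.1%) in GFP-negative cells, and negative within both for 4 (against 29.2%) and 2 (against 27.6%). Both arrays lay above both control arrays for 19 members (43.2%, against 19.1%) in GFP-positive and for 18 (40.9%, against 16.3%) in GFP-negative cells. The only member with both arrays below both control arrays was Ttk, in each treated group (2.27% of members, against 15.7% and 14.1% of genes).

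**Figure D1:**
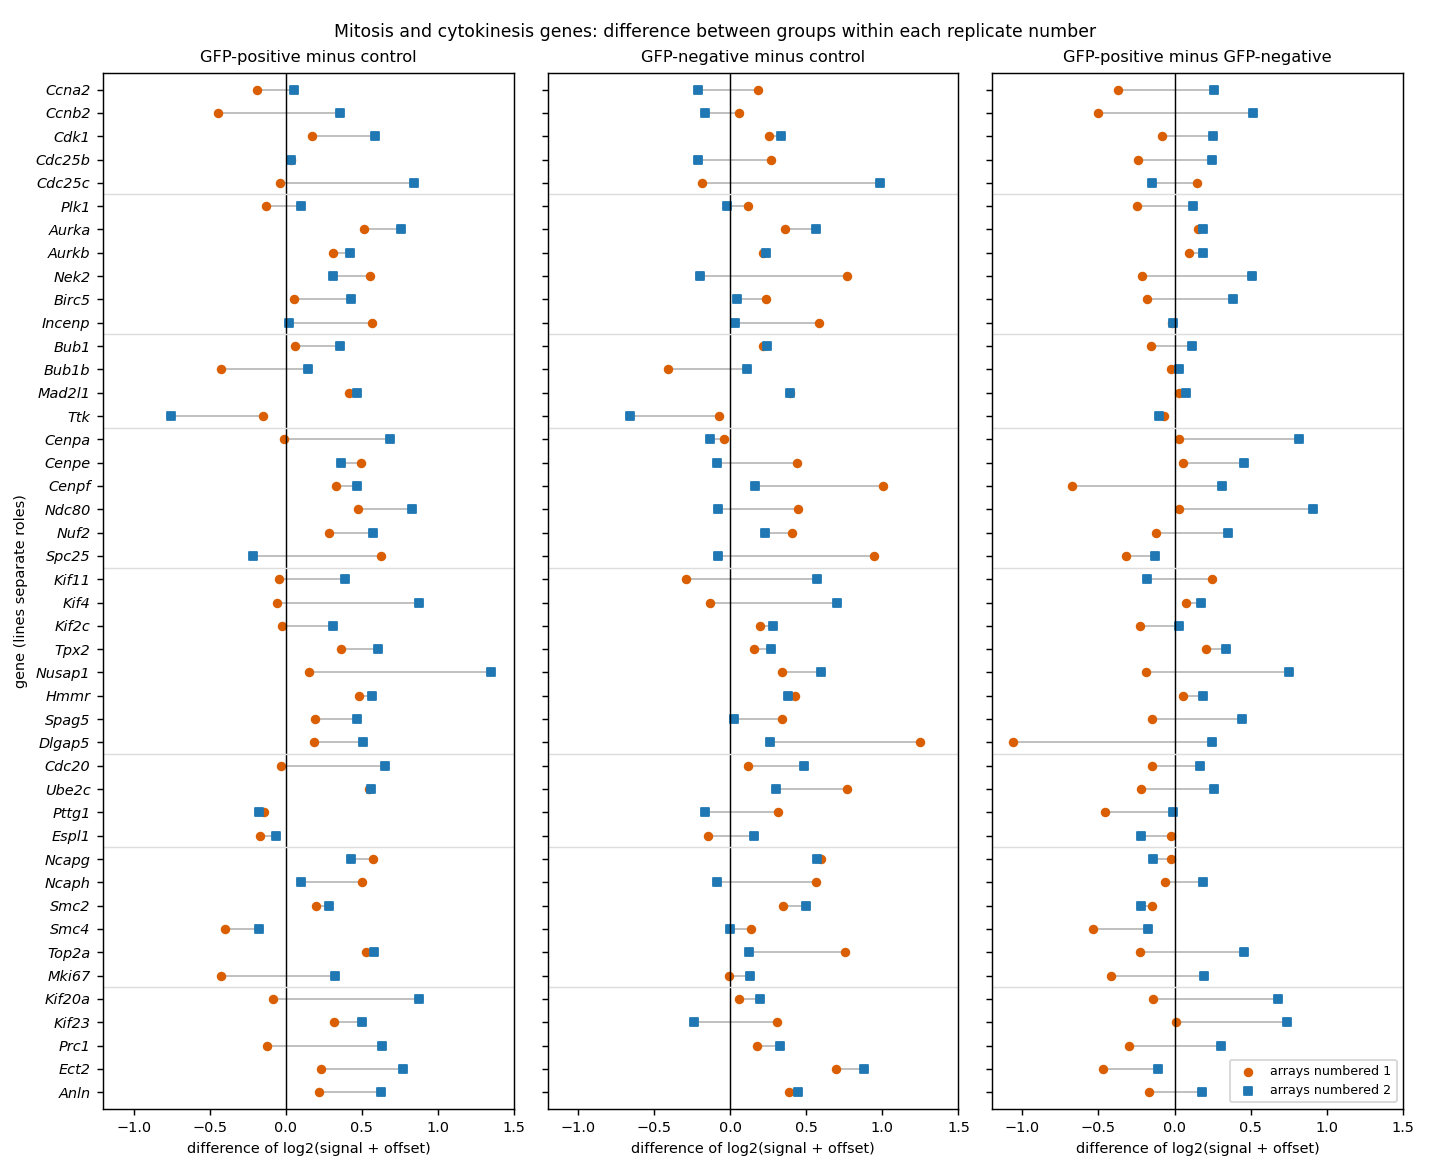
Difference of log2(signal + offset) between groups for each of the 44 genes, within the arrays numbered 1 (circles) and those numbered 2 (squares), with genes ordered by role down the page. In the panels against control most points lie right of 0, while in GFP-positive minus GFP-negative cells the circles lie mostly left of 0 (12 of 44 positive) and the squares mostly right of it (33 of 44 positive).

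Promoters are shown for Aurka, Top2a, Ube2c, Anln, Hmmr and Ncapg. Among the members in the promoter table, these are the 6 with the smallest unadjusted p in GFP-positive against control cells. The choice is a rank by p, and limma without the block called no member. Tpx2, whose p was also among the smallest, is not in the promoter table. The sequences are RefSeq's (GRCm38.p6), 300 bases from 250 before to 50 after the start site, for Aurka at chr2:172370521-172370820 (- strand), Top2a at chr11:99024140-99024439 (- strand), Ube2c at chr2:164769679-164769978 (+ strand), Anln at chr9:22389157-22389456 (- strand), Hmmr at chr11:40733388-40733687 (- strand) and Ncapg at chr5:45669675-45669974 (+ strand). They read 5′ to 3′ along the gene, and capitals mark the CHR letters TTTGAA and the CCAAT letters, or the reverse complement of either:
Aurka: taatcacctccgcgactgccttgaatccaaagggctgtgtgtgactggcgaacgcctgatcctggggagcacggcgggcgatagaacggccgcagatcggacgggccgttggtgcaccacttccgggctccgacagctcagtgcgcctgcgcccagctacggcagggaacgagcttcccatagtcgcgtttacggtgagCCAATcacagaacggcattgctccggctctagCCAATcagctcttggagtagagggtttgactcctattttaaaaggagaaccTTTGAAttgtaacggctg
Top2a: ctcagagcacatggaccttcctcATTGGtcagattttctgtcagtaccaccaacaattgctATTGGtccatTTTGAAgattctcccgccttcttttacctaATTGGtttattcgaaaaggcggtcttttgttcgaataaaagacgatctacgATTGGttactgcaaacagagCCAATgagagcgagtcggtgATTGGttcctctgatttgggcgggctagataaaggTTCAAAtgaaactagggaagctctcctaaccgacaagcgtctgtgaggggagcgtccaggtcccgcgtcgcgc
Ube2c: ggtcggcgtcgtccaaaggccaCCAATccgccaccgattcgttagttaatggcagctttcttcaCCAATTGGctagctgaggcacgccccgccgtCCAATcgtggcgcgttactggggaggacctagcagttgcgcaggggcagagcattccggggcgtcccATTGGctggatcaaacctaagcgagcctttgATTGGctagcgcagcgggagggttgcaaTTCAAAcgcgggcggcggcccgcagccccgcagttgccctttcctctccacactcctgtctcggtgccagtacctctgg
Anln: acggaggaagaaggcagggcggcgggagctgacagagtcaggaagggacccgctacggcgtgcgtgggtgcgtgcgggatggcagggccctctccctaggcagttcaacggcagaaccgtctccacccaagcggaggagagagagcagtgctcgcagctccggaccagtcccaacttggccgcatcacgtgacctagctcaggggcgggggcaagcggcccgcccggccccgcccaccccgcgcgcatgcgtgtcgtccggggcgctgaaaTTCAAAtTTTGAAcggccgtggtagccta
Hmmr: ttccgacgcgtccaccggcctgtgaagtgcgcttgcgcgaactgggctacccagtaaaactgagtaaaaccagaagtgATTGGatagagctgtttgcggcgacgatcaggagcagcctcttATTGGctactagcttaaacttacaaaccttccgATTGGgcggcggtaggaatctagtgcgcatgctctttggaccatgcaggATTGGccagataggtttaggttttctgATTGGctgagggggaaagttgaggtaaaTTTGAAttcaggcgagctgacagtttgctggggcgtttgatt
Ncapg: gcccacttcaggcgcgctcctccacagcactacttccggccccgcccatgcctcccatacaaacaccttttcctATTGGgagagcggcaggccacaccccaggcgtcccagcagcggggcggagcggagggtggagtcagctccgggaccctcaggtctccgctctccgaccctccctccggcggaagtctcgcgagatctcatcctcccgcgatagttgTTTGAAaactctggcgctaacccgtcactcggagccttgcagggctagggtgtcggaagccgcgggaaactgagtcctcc

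All 6 promoters held a CHR match, and 5 held CCAAT. Top2a and Ube2c had 6 CCAAT matches each, on both strands, Hmmr 5, Aurka 2, Ncapg 1 and Anln 0. In Ube2c a CCAAT match and one on the opposite strand share letters. Top2a and Anln held 2 CHR matches each, 1 on each strand, which in Anln are separated by a single base. Of the 44 members 36 were found in the promoter table, and 26 of these (72.2%) held the CHR letters TTTGAA on either strand, against 14.5% of the 10643 tested genes in the table, the members included, and 20.2% of all 27025 genes in it. CCAAT was found in 27 of 36 (75%) against 42.6% and 41.1%, and 2 or more CCAAT matches in 17 (47.2%) against 16.2% of tested genes. Both motifs together were found in 23 (63.9%) against 5.66% of tested genes. The CHR matches lay at the start site: 16 of 36 members (44.4%) had one that began within the 50 bases after it, against 1.36% of tested genes, and 8 (22.2%) within the 50 bases before it, against 1.55%. CCAAT matches lay just upstream, with 18 members (50%) within the 50 bases before the start, against 11.7%. A match of letters is a description and not a test of binding.

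Members with and without the CHR letters had similar medians. In GFP-positive against control cells the 26 members with a match had a median difference of 0.33 (20 positive) and the 10 without one 0.36 (9 positive). In GFP-negative cells the medians were 0.27 (22 positive) and 0.23 (10 positive). These medians were not tested.

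**Figure D2:**
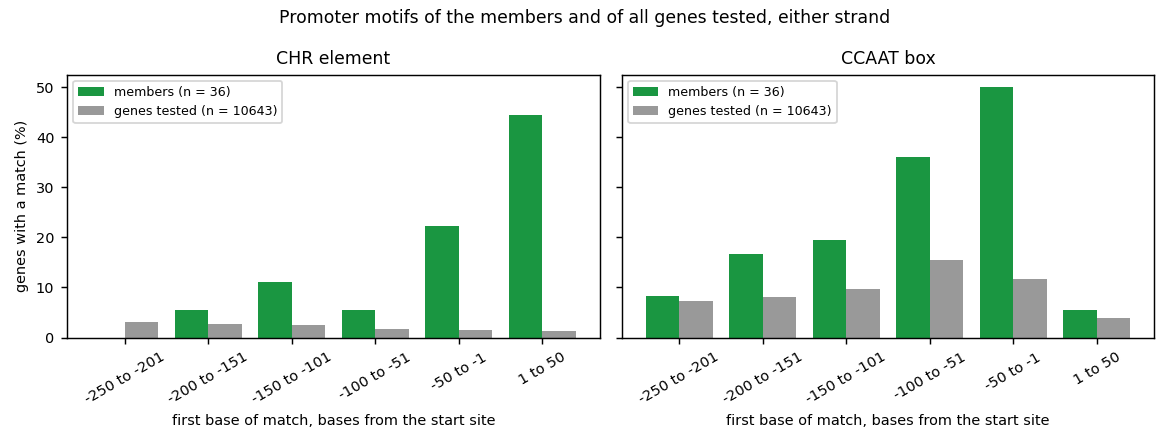
Share of genes (%) with a CHR match (left) or a CCAAT match (right) on either strand, by the position of the first base of the match in windows of 50 bases from the start site, for 36 members (green) and 10643 tested genes (grey). CHR matches of members gather in the window from 1 to 50 (44.4%) and CCAAT matches in that from -50 to -1 (50%).

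Among the genes that start mitosis, Cdk1 lay above control on every treated array, while Ccna2 and Ccnb2 overlapped it. Signals are given for replicate 1 and then replicate 2. Cdk1, the kinase that drives entry into mitosis, had signals of 2985 and 3729 in GFP-positive cells, 3164 and 3127 in GFP-negative cells and 2644 and 2473 in control cells. All 4 treated arrays lay above both control arrays, by 0.38 ± 0.21 (SE; adjusted p = 0.848, limma) in GFP-positive cells and 0.30 ± 0.21 in GFP-negative cells. Ccna2, the cyclin of S phase and early mitosis, had 1413 and 1592 in GFP-positive cells, 1839 and 1324 in GFP-negative cells and 1615 and 1534 in control cells. The 3 groups overlapped, with a difference of -0.068 ± 0.24 in GFP-positive against control cells and opposite signs within the replicate numbers (-0.19 and 0.052). A dimmer probe set of Ccna2 was at -0.38 ± 0.31 in GFP-positive cells, negative within both replicate numbers (-0.17 and -0.59). In GFP-negative cells it was at 0.0047 ± 0.31, and both groups overlapped control. Ccnb2, a B-type cyclin, was at -0.046 ± 0.31 in GFP-positive cells, also with opposite signs (-0.45 and 0.35), and at -0.054 ± 0.31 in GFP-negative cells. The CDC25 phosphatases, which remove the inhibitory phosphates of Cdk1, were at 0.034 ± 0.57 (Cdc25b) and 0.40 ± 0.42 (Cdc25c) in GFP-positive cells, and both overlapped control. Another probe set of Cdc25c was at -1.33, so its probe sets disagreed in sign.

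Of the mitotic kinases, Aurka lay above control on every treated array and Plk1 overlapped it. Aurka, the Aurora kinase of centrosomes and spindle poles, had 1391 and 1657 in GFP-positive cells, 1250.1 and 1452 in GFP-negative cells and 966 and 971 in control cells. Both GFP-positive and both GFP-negative arrays lay above the control arrays, which were nearly equal. Its difference was 0.63 ± 0.23 in GFP-positive cells (0.51 in replicate 1 and 0.75 in replicate 2; limma adjusted p = 0.562, or 0.0392 with the block) and 0.46 ± 0.23 in GFP-negative cells (0.36 and 0.57; adjusted p = 1, or 0.162 with the block). Plk1, the polo-like kinase of mitotic entry and spindle assembly, had 851 and 962 in GFP-positive cells, 1017 and 880.4 in GFP-negative cells and 934 and 895 in control cells. These signals overlapped throughout, and the difference in GFP-positive cells was -0.015 ± 0.23, with a 95% interval of -0.55 to 0.52. Aurkb, the kinase of the chromosomal passenger complex, had 503 and 407 in GFP-positive cells, 469.6 and 353 in GFP-negative cells and 400.3 and 295 in control cells. The GFP-positive arrays were just above both control arrays (0.37 ± 0.31), and the GFP-negative arrays overlapped them (0.22 ± 0.31). Its partners Birc5 (survivin) and Incenp were at 0.24 ± 0.26 and 0.29 ± 0.27 in GFP-positive cells and 0.14 ± 0.26 and 0.30 ± 0.27 in GFP-negative cells. The centrosome kinase Nek2 was at 0.43 ± 0.59 and 0.28 ± 0.59. In GFP-positive cells 5 of these 6 genes were above control within both replicate numbers, Plk1 being the exception.

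**Figure D3:**
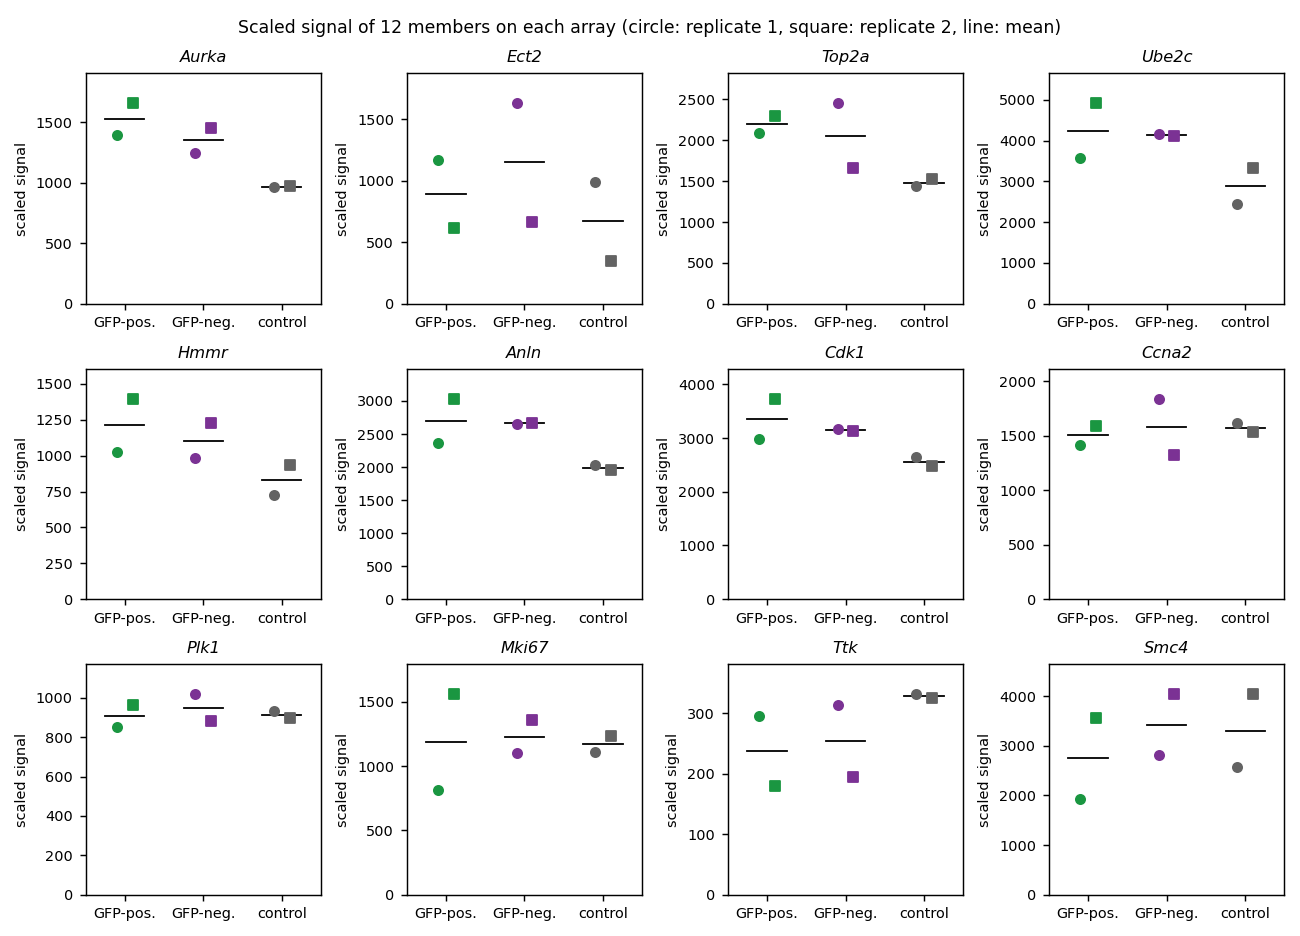
Scaled signal of 12 members on each of the 6 arrays (circles replicate 1, squares replicate 2, line the mean of the group), with an axis from 0 for each gene. For Aurka, Top2a, Ube2c, Hmmr, Anln and Cdk1 all treated arrays lie above both control arrays, while Ccna2, Plk1, Mki67 and Smc4 overlap between groups and Ttk lies below control.

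The spindle checkpoint genes went different ways. Mad2l1, whose product binds and holds Cdc20, was at 0.44 ± 0.24 in GFP-positive and 0.39 ± 0.24 in GFP-negative cells, with nearly equal values within both replicate numbers (0.42 and 0.47 in GFP-positive, 0.39 and 0.39 in GFP-negative cells). The checkpoint kinase Bub1 was at 0.21 ± 0.25 and 0.23 ± 0.25, with no overlap with control in either group. Ttk, the kinase that starts checkpoint signalling at kinetochores (Mps1), had 296 and 180.1 in GFP-positive cells, 313 and 195 in GFP-negative cells and 331 and 325 in control cells. It was the lowest member against control, at -0.45 ± 0.37 in GFP-positive cells (-0.15 and -0.76) and -0.37 ± 0.37 in GFP-negative cells. Most of that difference lay in the replicate 2 arrays. Bub1b, the checkpoint protein BubR1, had 441 and 494 in GFP-positive cells, 449 and 483 in GFP-negative cells and 605 and 444 in control cells. Only control replicate 1 stood apart from the other 5 arrays, and the difference was -0.14 ± 0.28 in GFP-positive cells.

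All 6 centromere and kinetochore genes were positive in GFP-positive against control cells, with a median of 0.41, and 5 of 6 in GFP-negative cells, with a median of 0.25. Ndc80, the microtubule-binding subunit of the outer kinetochore, had 432 and 452 in GFP-positive cells, 422 and 227 in GFP-negative cells and 302 and 242 in control cells. The GFP-positive arrays lay above control by 0.65 ± 0.36 (0.47 and 0.83; limma adjusted p = 0.84), whereas of the GFP-negative arrays only replicate 1 did. Its complex partners Nuf2 and Spc25 were at 0.43 ± 0.45 and 0.20 ± 0.31, and both overlapped control. Cenpa, the histone H3 variant of centromeres, had 1528 and 2407 in GFP-positive cells, 1498 and 1354 in GFP-negative cells and 1541 and 1486 in control cells. A single array, GFP-positive replicate 2, was high, and the other 5 were close together. The kinesin Cenpe and the large kinetochore protein Cenpf were at 0.43 ± 0.27 and 0.40 ± 0.36 in GFP-positive cells, with no overlap with control.

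The 8 spindle genes were positive in both treated groups, with medians of 0.38 in GFP-positive and 0.26 in GFP-negative cells. Tpx2, which activates Aurora A and nucleates spindle microtubules, had 1419 and 1612 in GFP-positive cells, 1226 and 1269 in GFP-negative cells and 1098 and 1049.6 in control cells. On this probe set the groups did not overlap, with GFP-positive cells highest, and the difference from control was 0.48 ± 0.22 in GFP-positive and 0.21 ± 0.22 in GFP-negative cells (limma adjusted p = 0.739 and 1, or 0.104 and 0.573 with the block). Its 3 dimmer probe sets were also positive against control, but in 2 of them GFP-negative cells were the higher, at 0.36 in GFP-positive and 0.51 in GFP-negative cells on one and 0.94 and 1.14 on the other. Hmmr, the hyaluronan receptor that also acts at spindle poles, had 1027 and 1395 in GFP-positive cells, 985 and 1224 in GFP-negative cells and 727 and 932 in control cells. All treated arrays exceeded both control arrays, by 0.52 ± 0.27 and 0.40 ± 0.27. Its other 3 probe sets that passed the filter were at 0.62 to 0.73 in GFP-positive cells. In GFP-negative cells they were at 0.14 to 0.51, and there all 3 overlapped control. Dlgap5, a microtubule-bundling protein of the spindle, had 258 and 411 in GFP-positive cells, 572 and 341 in GFP-negative cells and 223 and 279.7 in control cells. It was highest on GFP-negative replicate 1, and the differences were 0.35 ± 0.37 in GFP-positive and 0.75 ± 0.37 in GFP-negative cells. Nusap1, which bundles spindle microtubules, had the highest difference of the members' brightest probe sets in GFP-positive cells. It was 0.75 ± 0.45, made up of 0.15 in replicate 1 and 1.35 in replicate 2. The kinesin Kif11, which pushes spindle poles apart, was at 0.17 ± 0.33 in GFP-positive cells, Kif4, a chromosome-bound kinesin, at 0.41 ± 0.49, the depolymerising kinesin Kif2c at 0.14 ± 0.24 and the astral microtubule protein Spag5 at 0.33 ± 0.32.

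Of the genes that act at anaphase onset, Ube2c stood furthest above control. This ubiquitin-conjugating enzyme of the anaphase-promoting complex had 3569.9 and 4916 in GFP-positive cells, 4157 and 4108 in GFP-negative cells and 2435 and 3326 in control cells. All treated arrays were higher than both control arrays, by 0.55 ± 0.25 in GFP-positive cells (0.55 in replicate 1 and 0.56 in replicate 2) and 0.53 ± 0.25 in GFP-negative cells (0.76 and 0.30). The adjusted p was 0.74 in GFP-positive cells by limma, or 0.0566 with the block. Cdc20, the activator of that complex, was at 0.31 ± 0.25 in GFP-positive and 0.30 ± 0.25 in GFP-negative cells. Its probe sets disagreed: a second bright one was at 0.09 ± 0.23 in GFP-positive and -0.18 ± 0.23 in GFP-negative cells, where both arrays lay below both control arrays, and a dim one at 1.29 ± 0.47 and 1.26 ± 0.47. Pttg1 (securin), the inhibitor of separase, had 4655 and 5624 in GFP-positive cells, 6408 and 5660.3 in GFP-negative cells and 5147 and 6364 in control cells. The groups overlapped, and the difference was -0.16 ± 0.22 in GFP-positive and 0.073 ± 0.22 in GFP-negative cells. Another bright probe set of Pttg1 was at 0.19 in GFP-positive cells, of the opposite sign. Separase itself, Espl1, was at -0.12 ± 0.39 in GFP-positive and 0.0038 ± 0.39 in GFP-negative cells.

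Genes of chromosome structure also divided. Top2a, the topoisomerase that untangles sister chromatids, had 2093 and 2295 in GFP-positive cells, 2453 and 1663 in GFP-negative cells and 1444 and 1523 in control cells. It was above control on all 4 treated arrays, by 0.55 ± 0.25 in GFP-positive cells (0.53 and 0.58; limma adjusted p = 0.738) and 0.44 ± 0.25 in GFP-negative cells (0.75 and 0.12). A dimmer probe set of Top2a was at 0.062 ± 0.45 in GFP-positive cells, where it overlapped control. In GFP-negative cells it was at 0.29 ± 0.45, with both arrays above both control arrays. Ncapg, a subunit of condensin I, had 455 and 460.1 in GFP-positive cells, 462 and 512 in GFP-negative cells and 295 and 335 in control cells. The treated arrays did not overlap control (0.50 ± 0.27 and 0.58 ± 0.27), and another condensin I subunit, Ncaph, was at 0.30 ± 0.25 and 0.24 ± 0.25. Smc2, an ATPase core subunit of both condensins, had 1706 and 1700.0 in GFP-positive cells, 1898 and 1982 in GFP-negative cells and 1483 and 1393 in control cells. On this probe set the GFP-negative arrays were the highest and the GFP-positive arrays lay between them and control. Dimmer ones of Smc2 disagreed, at -0.20, 0.57 and 0.41 in GFP-positive and 0.31, 0.01 and -0.18 in GFP-negative against control cells. Its partner Smc4 had 1937 and 3566 in GFP-positive cells, 2824 and 4034 in GFP-negative cells and 2564 and 4036 in control cells. Smc4 followed the replicate number in every group, and its difference was -0.29 ± 0.36 in GFP-positive and 0.069 ± 0.36 in GFP-negative cells. A dimmer Smc4 probe set had the opposite sign in GFP-positive cells, at 0.30 ± 0.26 with both arrays above both control arrays, and another was at -0.20 ± 0.27. Mki67, the Ki-67 antigen that coats mitotic chromosomes and is widely used to mark proliferating cells, had 816 and 1557 in GFP-positive cells, 1101 and 1358 in GFP-negative cells and 1108 and 1237 in control cells. GFP-positive cells gave both the lowest and the highest array, and the difference from control was -0.051 ± 0.32, with a 95% interval of -0.80 to 0.70, and 0.061 ± 0.32 in GFP-negative cells (-0.69 to 0.81).

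All 5 cytokinesis genes were positive in both treated groups, with medians of 0.41 in GFP-positive and 0.25 in GFP-negative cells. Anln (anillin), the scaffold of the contractile ring, had 2359 and 3033 in GFP-positive cells, 2659 and 2673 in GFP-negative cells and 2027 and 1951 in control cells. Every treated array exceeded both control arrays, by 0.42 ± 0.22 and 0.42 ± 0.22. Ect2, the exchange factor that activates RhoA at the division plane, had 1169.7 and 617 in GFP-positive cells, 1629 and 667 in GFP-negative cells and 992 and 349 in control cells. The replicate 1 arrays were higher in each group, so the groups overlapped, and the differences of 0.50 ± 0.58 and 0.79 ± 0.58 had wide errors. Within the replicate numbers Ect2 was at 0.70 and 0.88 in GFP-negative cells, where it passed the test with the block (adjusted p = 0.0472, or 1 by limma without it), and at 0.23 and 0.77 in GFP-positive cells (adjusted p = 0.16 with the block). Kif23, a kinesin of the central spindle, had 865 and 964 in GFP-positive cells, 859 and 565 in GFP-negative cells and 687 and 672 in control cells. GFP-positive cells were above control on both arrays (0.41 ± 0.28), and GFP-negative cells were above it on replicate 1 and below it on replicate 2 (0.036 ± 0.28). A dimmer probe set of Kif23 was at -0.0060 ± 0.32 in GFP-positive cells and overlapped control. In GFP-negative cells it was at -0.25 ± 0.32, with both arrays below both control arrays. The central spindle proteins Kif20a and Prc1 were at 0.40 ± 0.31 and 0.26 ± 0.30 in GFP-positive and 0.13 ± 0.31 and 0.25 ± 0.30 in GFP-negative cells. A dimmer probe set of Prc1 was at 0.82 ± 0.36 in GFP-positive and 0.80 ± 0.36 in GFP-negative cells. Its treated arrays all lay above both control arrays, but it was not called with or without the block.

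Treated cells with an active transgene were then set against those whose transgene had stayed silent, which asks whether mitotic genes differed with reactivation. Over both replicate numbers 28 of 44 members were positive, against 50.1% of all genes, with a median of 0.0093 against 0.00058. That value is made up of opposite parts. Within replicate 1 the median was -0.15 and 12 of 44 members were positive (27.3%, against 48.2% of all genes), and within replicate 2 it was 0.19 with 33 positive (75%, against 52.1%). Only 10 members were higher (22.7%, against 27.6% of genes) and 9 lower (20.5%, against 27.3%) within both. Limma called 0 members, and 0.0% of all probe sets, with or without the block. At an unadjusted p under 0.05 there were 0 members, against 0.522% of all genes, or 1, Smc4, with the block, against 5.6%. Smc4 was at -0.36 ± 0.36 on its brightest probe set, but at 0.20 and -0.062 on its other 2. The arrays did not overlap for 5 members higher in GFP-positive cells (against 10.5% of genes), namely Cenpa, Cenpe, Ndc80, Tpx2 and Kif23, and for 4 lower in them (against 10.2%), namely Spc25, Pttg1, Ncapg and Smc2. Dimmer probe sets did not always share that sign. Those of Smc2 were at -0.50, 0.55 and 0.59, that of Ncapg at 0.0066 and that of Cenpe at -0.12.

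The members of smallest p between GFP-positive and GFP-negative cells were Cenpa (0.42 ± 0.26; 0.028 in replicate 1 and 0.82 in replicate 2), Kif23 (0.37 ± 0.28; 0.0091 and 0.74), Ndc80 (0.47 ± 0.36; 0.03 and 0.91), Tpx2 (0.27 ± 0.22; 0.21 and 0.34), Dlgap5 (-0.41 ± 0.37; -1.06 and 0.25) and Pttg1 (-0.23 ± 0.22; -0.46 and -0.0091). The first 3 thus rested on the replicate 2 arrays, and Dlgap5 reversed between the replicate numbers. The brightest probe set of Tpx2 was higher in GFP-positive cells within both, with signals that did not overlap, but 2 of its 3 dimmer ones were lower within both, at -0.16 ± 0.36 (with no overlap) and -0.20 ± 0.84. Dimmer probe sets of Dlgap5 (0.29) and Pttg1 (0.14) also had the opposite sign to the brightest. Aurka was at 0.17 ± 0.23, with a 95% interval of -0.36 to 0.69. The 95% interval lay between -1 and 1 (within 2-fold) for 31 of 44 members, or for 42 with the block, so for these a change of 2-fold or more lies outside the interval, and smaller ones were not resolved by 2 arrays a group.

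The sign of the difference from control was split between the replicate numbers for 14 of 44 members in GFP-positive and 18 in GFP-negative cells. Over all 13223 genes it was split for 4574 and 4934, a similar share. Across the 44 members the differences from control within replicate 1 and within replicate 2 correlated with r = 0.22 in GFP-positive and -0.04 in GFP-negative cells, against 0.45 and 0.38 across all 13223 genes. The points are genes, which are not independent, and the members span a narrow range. Members had 55 further probe sets, of which 43, of 27 genes, passed the filter. In GFP-positive against control cells 33 of the 43 had the sign of the gene's brightest probe set and their median was 0.30, and in GFP-negative cells 34 did, with a median of 0.14. A probe set of opposite sign was found in GFP-positive cells for Bub1, Cdc25c, Cenpf, Kif23, Kif2c, Ncaph, Pttg1, Smc2, Smc4 and Spc25, and in GFP-negative cells for Ccna2, Cdc20, Cdc25c, Dlgap5, Kif11, Kif23, Smc2 and Smc4. For 20 of 44 members the brightest probe set is one that Affymetrix marks as able to hybridise with related transcripts. Without such probe sets 33 members remained, with 22 positive and a median of 0.24 in GFP-positive cells, and 28 positive and a median of 0.18 in GFP-negative cells.

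Other genes of the cell cycle are given from lists that do not share a gene with the members. Of 54 further mitosis genes that passed the filter, 43 were positive in GFP-positive and 50 in GFP-negative against control cells, with medians of 0.26 and 0.29. Limma called 0 of them, and 6 in GFP-positive and 4 in GFP-negative cells had an unadjusted p under 0.05, where 8.58% and 6.2% of all genes did. With the block 4 were higher in GFP-positive cells, Gtse1, Cep55, Ckap2 and Kpna2, and 1, Gtse1, in GFP-negative cells, where 3.15% and 1.9% of all probe sets were called upward. Gtse1, a microtubule-binding protein of G2 and M phase that also restrains p53, had 977 and 863 in GFP-positive, 778 and 813 in GFP-negative and 452 and 421 in control cells. Its difference was 1.02 ± 0.24 in GFP-positive cells (limma adjusted p = 0.279, or 0.00763 with the block), larger than that of any of the 44 members on its brightest probe set. Cep55, which recruits the abscission machinery to the midbody, was at 1.04 ± 0.26, and Ckap2, a spindle protein, at 1.07 ± 0.34 (adjusted p = 0.00963 and 0.0427 with the block).

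Genes of S phase stood above control by similar amounts, 23 of 27 with a median of 0.30 in GFP-positive and 24 of 27 with a median of 0.35 in GFP-negative cells. Limma called 0 in either group (4 in each had an unadjusted p under 0.05, against 8.58% and 6.2% of all genes), and with the block 4 of 27 were higher in each, against 3.15% and 1.9% of all probe sets. Those of smallest p in GFP-positive cells were Rrm2, a subunit of ribonucleotide reductase (0.96 ± 0.23; 0.61 and 1.31 within the replicate numbers), the licensing factor Cdt1 (0.81 ± 0.25) and the cyclin Ccne2 (0.95 ± 0.32). Within replicates 1 and 2 the list's medians were 0.30 and 0.43 in GFP-positive and 0.30 and 0.41 in GFP-negative cells. Of the transcription factors of the G2/M program 16 of 20 were positive in GFP-positive cells (median 0.29) and 17 in GFP-negative cells (0.25). Limma called 0 of them (2 and 1 had an unadjusted p under 0.05, near the 8.58% and 6.2% of all genes), and 1 of 20, the repressor E2f7, was higher in GFP-positive cells with the block, against 3.15% of all probe sets (0.84 ± 0.28; adjusted p = 0.048). Lin9, a subunit of the DREAM and B-Myb complexes, was at 0.94 ± 0.38, and Nfyc, a subunit of NF-Y, at 0.38 ± 0.22. Foxm1, named for its role after its values were seen, had 538 and 269 in GFP-positive, 626 and 183 in GFP-negative and 398 and 205 in control cells. It followed the replicate number, with a difference of 0.38 ± 0.59 in GFP-positive cells.

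Subunits of the anaphase-promoting complex, many of which are made throughout the cell cycle, did not stand above control. Only 5 of 16 were positive in each treated group, with a median of -0.079 in GFP-positive and -0.075 in GFP-negative cells. Those of smallest p in GFP-positive cells were Anapc5 (-0.44 ± 0.25), Anapc2 (-0.36 ± 0.23) and Fzr1, its activator late in mitosis and in G1 (0.41 ± 0.28). Among cohesin genes, which hold sister chromatids together, 10 of 14 were positive in GFP-positive and 8 in GFP-negative cells. The medians were 0.20 and 0.07, and Stag1, Rad21 and Sgo1 were at 0.58, 0.55 and 0.66 in GFP-positive cells. In neither list did limma call a gene with or without the block, where the block called 6.21% and 3.57% of all probe sets. An unadjusted p under 0.05 was reached by 0 genes of the anaphase-promoting complex and 1 cohesin gene in GFP-positive cells, and by 0 of both lists in GFP-negative cells. Of all genes 8.58% and 6.2% reached it. In the blocked fit 2 of 16 and 5 of 14 did in GFP-positive cells, against 23.4% of all genes. In GFP-negative cells 2 of 16 and 2 of 14 did, against 18.9%.

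Inhibitors of the cell cycle went both ways. Of 15 CDK inhibitors and p53 targets 7 were positive in GFP-positive and 9 in GFP-negative cells, and limma called 0 (5 and 2 had an unadjusted p under 0.05, against 8.58% and 6.2% of all genes). With the block 5 of 15 passed in GFP-positive cells, 3 upward and 2 downward, against 6.21% of all probe sets, and 3 of 15 in GFP-negative cells, 2 upward and 1 downward, against 3.57%. Cdkn1a (p21), the p53-induced inhibitor of cyclin-dependent kinases, had 11306 and 11567 in GFP-positive, 11316 and 10837 in GFP-negative and 6804 and 7761 in control cells. It was above control on all 4 treated arrays, by 0.65 ± 0.20 and 0.61 ± 0.20 (limma adjusted p = 0.443 and 0.707, or 0.0101 and 0.0211 with the block). Cdkn1b (p27), another inhibitor, had 500.4 and 223 in GFP-positive, 677 and 444 in GFP-negative and 1205 and 760.2 in control cells. It fell in GFP-positive cells with the block (adjusted p = 0.00212), with a difference of -1.43 ± 0.42, and was at -0.77 ± 0.42 in GFP-negative cells. Cdkn2a, the locus of p16 and Arf, likewise fell with the block in GFP-positive cells (-1.30 ± 0.33; adjusted p = 0.0113) and was at -0.54 ± 0.33 in GFP-negative cells. Mdm2, the p53-induced ligase that degrades p53, was higher with the block in both treated groups, at 1.63 ± 0.25 and 1.14 ± 0.25 (adjusted p = 4.83e-05 and 0.000683). The remaining calls with the block were Ccng1, higher in GFP-positive cells, and Gadd45a, lower in GFP-negative cells.

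**Figure D4:**
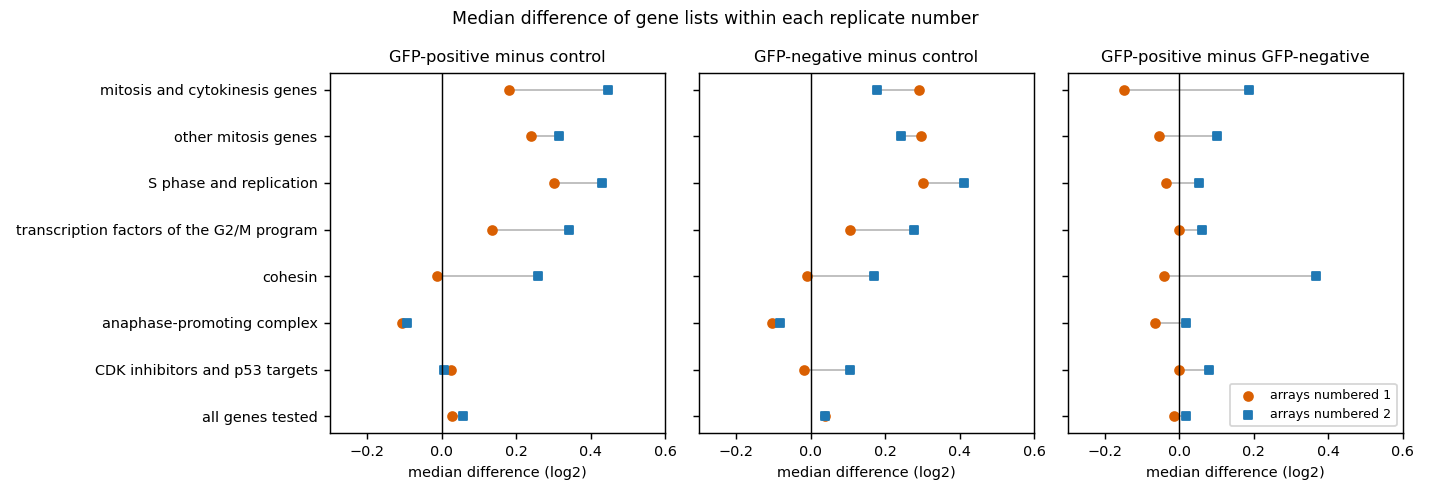
Median difference (log2) of the mitosis and cytokinesis genes, of 6 other cell cycle lists and of all genes tested, within the arrays numbered 1 (circles) and those numbered 2 (squares). The 2 mitosis lists, the S phase list and the transcription factors lie right of 0 against control in both sets, and between GFP-positive and GFP-negative cells the mitosis and cytokinesis genes lie at -0.15 and 0.19.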

How the data were processed

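Total RNA from 6 samples was hybridised to 1 array each. The authors deposited a linear signal intensity for every probe set, computed by MAS5 (version not given in the sources used here) according to the submitters' processing notes. Its 2% trimmed mean was 500.003 or 500.004 on 4 arrays, 50.5 on the second GFP-positive array and 62.0 on the second GFP-negative one, and every array was rescaled to 500. From 45101 probe sets 64 controls were dropped. Of those left, 34945 carried 1 gene symbol, 932 several and 9160 none, and 34741 matched a gene identifier. Before taking log2, 30.64 was added (the median of the arrays' lower quartiles). Probe sets with a mean signal of at least 67.7, the 40th percentile, were tested (27022). Group means were fitted to all 6 arrays with limma 3.58.1 in R 4.3.3 (trended eBayes, two-sided, Benjamini-Hochberg). In the alternative with the replicate number as a block, each number holds 1 array of every group, and deviations from the group means correlated at 0.51 to 0.56 between same-numbered arrays. Other alternatives changed the normalization, offset, filter, trend, probe set choice, samples fitted and arrays. Code was tested on simulated data. The members, lists and motifs were chosen with earlier results of these data known. Signals of every array are printed for Ccna2, Cdk1, Plk1, Aurkb, Mki67 and Top2a, the 6 members of smallest p in each comparison, the 4 of opposite sign with the largest difference, and members called in either fit, and of each other list the 3 genes of smallest p in GFP-positive against control cells are named, with those called with the block. The number of arrays limits the precision.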

Additional observations from a re-analysis of the deposited data

How the results depend on the processing

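The members' median stayed positive against control under every alternative run, between 0.24 and 0.36 in GFP-positive and between 0.18 and 0.25 in GFP-negative cells under the settings that keep all arrays, and between 0.22 and 0.39 and between 0.15 and 0.32 with 1 array left out. Between GFP-positive and GFP-negative cells it ranged from 0.0047 to 0.044 with all arrays, and from -0.074 to 0.088 with 1 left out, which changed its sign. The count of members called was 0 under the alternatives without a block. With the replicate block it was 1 in GFP-positive (Aurka) and 1 in GFP-negative cells (Ect2), and likewise 1 and 1 with the block and 4 times the offset; with the block and quantile normalization it was 1 and 0, and with the block and no mean-variance trend 0 and 0. The 3 settings that add a change to the block were chosen after seeing the data. The block rests on replicate numbers that the labels share between groups, and no source says what a number marks. All probe sets called in GFP-positive against control cells numbered 33, against 78 at an adjusted p under 0.1, 0 without a trend, 20 without probe sets that bind related transcripts, 1679 with the block, 1631 with the block and quantile normalization, 1735 with the block and 4 times the offset, 8 with the block and no trend, and 0 to 35 with 1 array left out. In GFP-negative against control cells they numbered 8, against 25 at an adjusted p under 0.1, 16 with median centring, 3 with the offset divided by 4, 3 with a stricter filter on dim probe sets, 3 with only the groups compared, 3 without probe sets that bind related transcripts, 0 without a trend, 966 with the block, 916 with the block and quantile normalization, 996 with the block and 4 times the offset, 0 with the block and no trend, and 0 to 6 with 1 array left out. The cause was not tested. Searching promoters for TTTGAA or TTCGAA, chosen after seeing the data, gave 28 of 36 members (77.8%) against 16.5% of tested genes. Of 869 differences of single members under alternatives, those that moved by at least their SE numbered 35 in GFP-positive and 39 in GFP-negative against control cells, and those of uncalled members that changed sign 29 and 45. The block changed the call of no other member. With 2 arrays a group, a difference of the size of the members' median could not be resolved for a single gene.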
